A study of Mus musculus with 20 samples.

Results

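The genes described here are 10 mouse genes that mark the intestinal stem cell at the crypt base or that are switched on by the Wnt pathway: Lgr5, Ascl2, Smoc2, Prom1, Cdca7, Axin2, Rnf43, Znrf3, Sox9 and Myc. They were chosen by name, as rows of the count table whose Ensembl identifier carries one of these symbols in the mouse annotation, and all 10 were found among the 26619 gene identifiers in the table. All 10 also passed the filter on low counts, which kept 17893 genes. Their counts ranged from 110 to 4316 reads per gene and mouse, so none was at or near 0.

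RNA was measured in the distal colon (DC) of 20 C57BL/6 mice with no engineered allele named in the labels. After weaning, at an age of about 3 weeks, every mouse was fed the Total Western Diet (TWD), a rodent diet modelled on nutrient intake in the United States, for 6 weeks. For a further 3 weeks, 5 mice stayed on the TWD alone (0% RPS) and groups of 5 mice each received it with 2, 5 or 10% resistant potato starch (RPS), called raw potato starch in the labels. RPS is a starch that escapes digestion in the small bowel and is fermented by bacteria in the large bowel. The tissue was a whole piece of colon taken near its end, so muscle, stroma and immune cells were sequenced with the crypts, and a lower share of crypt base cells cannot be told apart from less RNA per cell.

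Intestinal crypts renew the epithelium from stem cells at their base. Wnt proteins, boosted by R-spondins that bind Lgr5 and its relatives, stabilise beta-catenin, which joins TCF/LEF factors on DNA and turns on genes that keep these cells dividing. Some of those targets act as brakes on the same pathway, and cells that leave the crypt base lose the signal, mature and reach the surface.

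The total count per mouse was 31.3 to 35.0 megacounts (M) in the control mice and 18.4 to 26.6 M with 10% RPS, and the 2% and 5% groups lay between in the mean. In 3 mice the labels disagree. The description gives 5% RPS for RS10_717, 10% for RS10_725 and 2% for RS10_748, whereas the treatment field gives 2, 5 and 10%. Diets follow the description here. Nothing in the labels says whether mice shared a cage or a litter, so the p-values measure the spread between these 20 mice. Epithelial markers were high, with Krt8, a keratin of simple epithelia, at a mean of 5749 CPM (the count divided by the library total in megacounts, after scaling by the trimmed mean of M-values), as was Hoxb13, a transcription factor of the most distal gut, at 459 CPM. Hoxb13 was at 520.4 ± 54.7 CPM at 0% RPS and 413.8 ± 25.2 CPM at 10% RPS, with every 10% mouse below every control. At 10% RPS, 2.28% of all genes lay wholly above or wholly below the controls. Of 7 tested genes of distal colon position 6 had a log2 fold change below 0, beside 9514 of 17893 genes tested. Whether the sampled position differed between diets was not tested. Markers of the squamous epithelium of the anal canal were low, and their 8-gene sum ranged from 7.44 to 10.997 CPM in controls and from 6.31 to 15.6 CPM with 10% RPS. Mouse RS10_721 of the 5% group carried 6472 CPM of pancreatic enzyme transcripts, against a group median of 486 CPM. RS10_784 of the 10% group carried 900 CPM, against a group median of 405 CPM. In controls the enzyme gene Cela1 alone had a mean of 519.9 CPM, where the whole list had a mean sum of 522.6 CPM.

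DNA before the start of the canonical transcript is shown for 3 of the genes. It is where a Wnt-responsive or a clock-responsive element would be sought for the patterns described further on. Prom1 is the gene whose trend over RPS passed in the main edgeR fit, a call that some other fits lost. Axin2 and Myc are the pair whose mRNAs varied together among mice. The windows are the 250 bases before the start of the canonical transcript in GRCm39, written 5′ to 3′ on the strand of the gene, without bases that belong to an exon of another transcript of the same gene. The Axin2 window covers chr11:108811388-108811625 on the plus strand, Myc chr15:61856977-61857226 on the plus strand and Prom1 chr5:44259396-44259546 on the minus strand. The bases left out were those next to the canonical start, 12 for Axin2, 99 for Prom1 and 0 for Myc. The annotated span of Axin2 starts at chr11:108811169, so its window lies inside that span. Capitals mark a match to the TCF/LEF core, searched as CTTTGAT or CTTTGAA on both strands.
Axin2: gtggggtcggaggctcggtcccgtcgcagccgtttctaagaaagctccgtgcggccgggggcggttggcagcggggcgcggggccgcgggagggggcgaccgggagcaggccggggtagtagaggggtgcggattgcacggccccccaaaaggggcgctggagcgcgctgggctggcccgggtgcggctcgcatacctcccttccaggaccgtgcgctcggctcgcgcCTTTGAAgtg
Myc: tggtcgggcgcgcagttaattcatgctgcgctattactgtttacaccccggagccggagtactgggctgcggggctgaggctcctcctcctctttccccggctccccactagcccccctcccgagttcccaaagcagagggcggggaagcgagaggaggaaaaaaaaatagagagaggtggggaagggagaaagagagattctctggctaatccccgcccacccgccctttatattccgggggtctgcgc
Prom1: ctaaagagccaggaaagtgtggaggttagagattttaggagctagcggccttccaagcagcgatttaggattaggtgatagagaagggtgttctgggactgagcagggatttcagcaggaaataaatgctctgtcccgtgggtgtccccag
Of the 10 full windows, only that of Axin2 held the TCF/LEF letters, as CTTTGAA starting 22 bases before the start site at chr11:108811616-108811622. The same letters were found in 7.54% of 21757 windows of equal length before protein-coding genes. The E-box CACGTG, which the core clock factors bind, was in 0 of the 10 windows and in 6.26% of all. The D-box, searched as TTACGTAA or TTATGTAA and bound by Dbp and its relatives, was in 0 of the 10 and in 0.933% of all. A match here is a string of letters and was not measured as bound, and windows without one say nothing of elements elsewhere.

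Whether RPS changed these genes was asked first at each level of RPS against the TWD alone. With edgeR's quasi-likelihood test, Benjamini-Hochberg adjustment over all 17893 genes and a fold of at least 1.5, 0 of the 10 genes were called at 10% RPS, where 0.0391% of all genes were called. At 5% and at 2% RPS 0 of the 10 were called, and the share over all genes was 0% in both. At an unadjusted p under 0.05 the counts were 1 of 10 at 10% RPS, against 15.2% of all genes, 2 at 5%, against 9.19%, and 0 at 2%, against 1.41%. DESeq2 called 1 of the 10 at 10% RPS, where it called 1.21% of the 17384 genes to which it gave an adjusted p. It called 0 of the 10 at 5% RPS, against 0.156% of all genes, and 0 at 2% RPS, against 0.00386%. A linear trend over the RPS percentage passed for 1 of the 10 genes, Prom1, where 2.1% of all genes passed. At an unadjusted p under 0.05 the trend also took 1 of the 10, against 19.1% of all genes. DESeq2 gave a trend to the same gene, where 6.01% of 16376 genes passed. A difference among any of the 4 diets passed in 0 of the 10 genes with edgeR, against 0.0727% of all genes, and in 1 with DESeq2, against 2.01%.

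**Figure D1:**
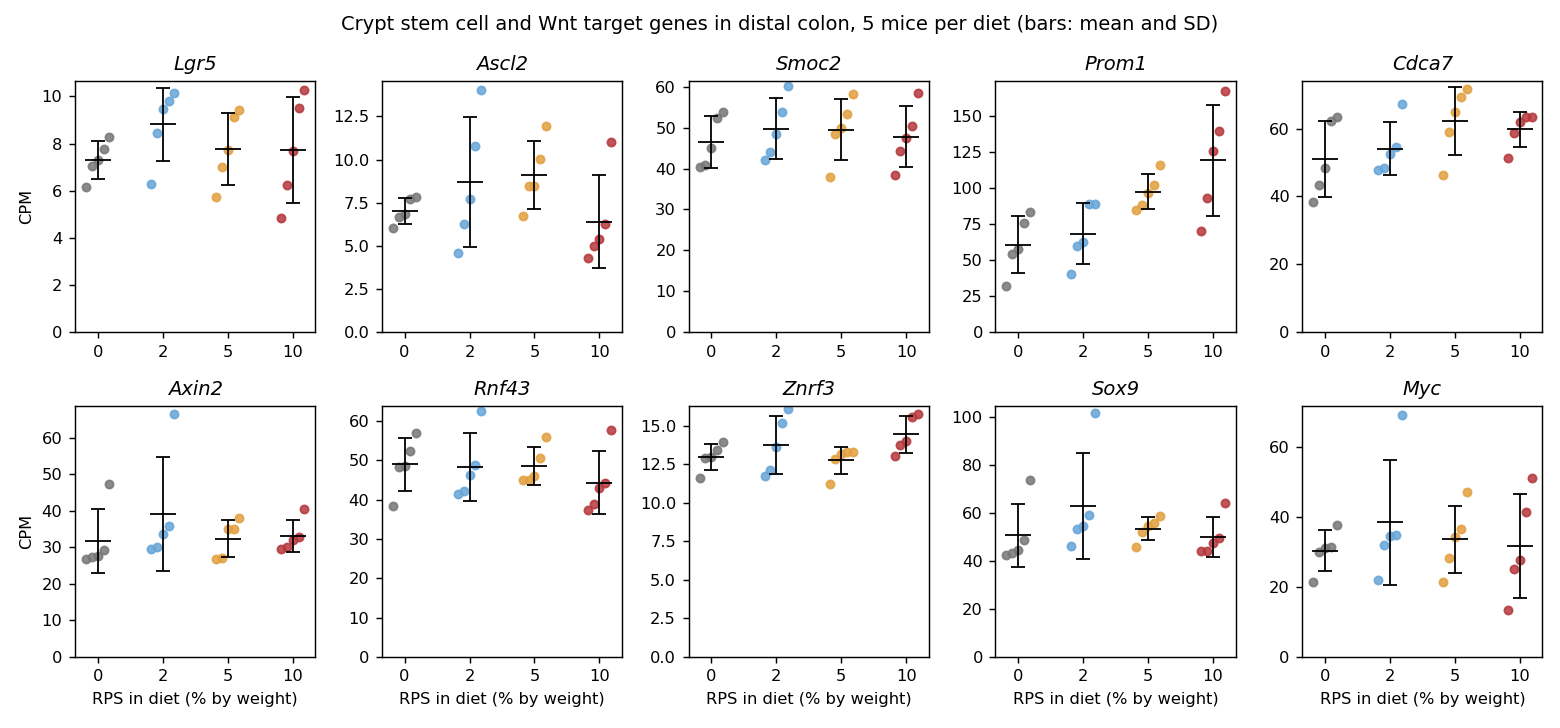
Level of each of the 10 genes in CPM (vertical axis, from 0) against the percentage of RPS in the diet, with 1 point per mouse and the mean and SD of 5 mice in black. Prom1 is the gene whose trend passed in the main edgeR fit, with a mean of 60.8 CPM without RPS and 119.2 CPM with 10% RPS, groups that overlap. Single mice stand high for Axin2, Sox9 and Myc.

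Prom1 encodes prominin-1, a cholesterol-binding protein of membrane protrusions that is listed here as a marker of the lower crypt (ENSMUSG00000029086, chr5:44150962-44259395, minus strand, GENCODE span in GRCm39 as for all genes here). Which cells of the colon carried Prom1 mRNA was not measured. Its level in the 5 mice at 0% RPS was 57.9, 83.5, 75.6, 32.2 and 54.5 CPM, with a mean of 60.8 CPM (SD 20.011, n = 5). At 2% RPS the mice had 59.8, 89.3, 40.1, 62.8 and 89.2 CPM (68.2 ± 21.1). These groups overlapped over nearly their whole range. At 5% RPS the values were 88.1, 102.3, 96.4, 116.2 and 85.1 CPM (97.6 ± 12.4), and at 10% RPS 93.0, 70.1, 125.8, 167.6 and 139.8 CPM (119.2 ± 38.4). All 5 mice at 5% RPS lay above the highest mouse at 0% RPS, a separation that 1.04% of all genes showed in either direction. At 10% RPS 4 of 5 mice did, and RS10_727, at 70.1 CPM, lay within the control range.

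The log2 fold change of Prom1 was 0.17 ± 0.26 (SE) at 2% RPS, 0.68 ± 0.26 at 5% and 0.97 ± 0.26 at 10%, where the 95% interval was 0.42 to 1.53. With edgeR the adjusted p was 0.450 at 5% and 0.103 at 10% RPS, so neither contrast passed, while DESeq2 gave 0.00807 at 10%. The slope was 0.10 ± 0.024 log2 units per 1% RPS, with an adjusted p of 0.0348 in edgeR and 0.000904 in DESeq2. Its size was much the same in all 20 fits that left out 1 mouse, from 0.088 to 0.12, and was 0.10 by the treatment label and 0.11 without the 3 mice whose labels disagree. The call was lost more easily. Without any one of RS10_701, RS10_708, RS10_709, RS10_716, RS10_729, RS10_731 or RS10_784 the edgeR adjusted p of the slope rose to between 0.0519 and 0.102. By the treatment label it was 0.168, where 0 genes of the whole table passed the trend, and without the 3 mice 0.0612, where 56 genes passed in place of 375. With every library thinned to the smallest total count it stayed below the threshold, at 0.0383. Without RS10_727 the 10% contrast itself passed, with an edgeR adjusted p of 0.0382.

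Among markers of other epithelial cells, some of the surface colonocyte, the mature absorptive cell, also differed between diets. The summed level of 10 surface colonocyte genes was 7557 to 10291 CPM in controls and 11251 to 13272 CPM in mice fed 10% RPS, so these groups did not overlap. Of its 9 tested genes 1 was called at 10% RPS, beside 0.0391% of all genes, namely Car4, a carbonic anhydrase of mature colonocytes, at 1116 ± 169 against 1825 ± 131 CPM. Car4, Slc26a3, the chloride and bicarbonate exchanger of surface cells, Aqp8, a water channel, and Krt20, a keratin of mature cells, passed the trend, beside 2.1% of all genes. None of 8 goblet or 5 tuft cell genes was called or passed the trend in edgeR. The summed level of 13 markers of the whole epithelium ranged from 16595 to 21525 CPM in controls and from 18898 to 22780 CPM in mice fed 10% RPS. Their mean log2 CPM, used for the scaling and correlation below, did not overlap. It ran from 9.20 to 9.496 in controls and from 9.501 to 9.81 with 10% RPS. Of the 13 markers 12 had a log2 fold change above 0 at 10% RPS, beside 8379 of the 17893 genes tested. With libraries scaled to those epithelial transcripts, the log2 fold change of Prom1 at 10% RPS was 0.73 in place of 0.97 (edgeR adjusted p = 0.0491) and its slope had an adjusted p of 0.0190, but under this scaling 591 genes were called and 4152 had a trend, of 17893. Within diets Prom1 followed the mean log2 CPM of the epithelial markers with r = 0.55 across 20 mice (permutation p = 0.00763, adjusted over 30 relations 0.229). Spearman's rho was 0.56 (permutation p = 0.0150, adjusted 0.207), and r without RS10_721 and RS10_784 was 0.57, so this relation failed the correction. With the surface colonocyte list r was 0.47 (permutation p = 0.0307, adjusted 0.257), rho was 0.43 (permutation p = 0.0629, adjusted 0.237), and r was 0.44 without RS10_704 and RS10_724, which failed it too.

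**Figure D2:**
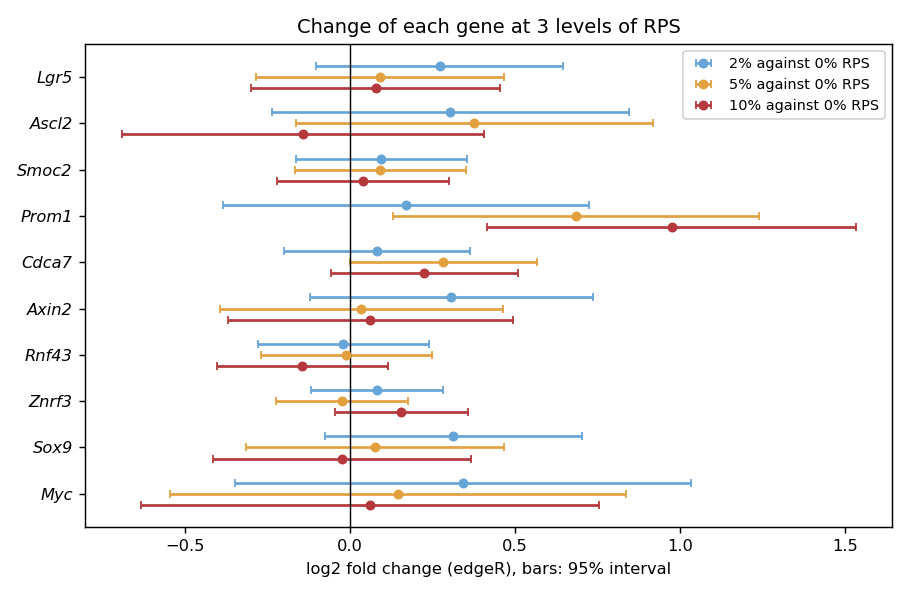
Fitted log2 fold change (horizontal axis) of each gene at 2, 5 and 10% RPS against 0% RPS, with its 95% interval. At 10% RPS the interval of Prom1 runs from 0.42 to 1.53 and does not reach 0, and those of the other 9 genes include 0.

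None of the other stem cell markers passed a test at 10% RPS. Lgr5, the R-spondin receptor that defines the crypt base stem cell (ENSMUSG00000020140, chr10:115286216-115423685), stood at 7.31, 6.14, 7.05, 7.77 and 8.29 CPM at 0% RPS (7.31 ± 0.806) and at 4.83, 6.26, 9.51, 10.3 and 7.69 CPM at 10% RPS (7.72 ± 2.25). The mean did not separate, but the spread at 10% RPS was wide, with 2 mice above and 1 below all controls. The log2 fold change was 0.08 ± 0.18 (95% interval -0.30 to 0.46, edgeR adjusted p = 0.882). At 2% RPS the 5 mice had 10.1, 6.29, 8.45, 9.48 and 9.79 CPM (8.83 ± 1.55), of which 4 exceeded every control, and the log2 fold change was 0.27 ± 0.18. At 5% RPS the mean was 7.79 ± 1.53 CPM.

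Ascl2, a transcription factor required by these stem cells and itself a Wnt target (chr7:142520564-142523006), was at 7.74, 6.68, 6.06, 6.84 and 7.80 CPM at 0% RPS and at 6.27, 11.05, 4.99, 5.40 and 4.31 CPM at 10% RPS. At 10% RPS 3 of 5 mice were below every control and RS10_727 was above them all, so the groups overlapped. The log2 fold change was -0.14 ± 0.26 (95% interval -0.69 to 0.41). At 5% RPS the mean was 9.13 ± 1.97 CPM against 7.02 ± 0.743 in controls, with 4 of 5 mice above the highest control and an edgeR adjusted p of 0.676.

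Smoc2, a secreted matricellular protein of crypt base cells (chr17:14499735-14625074), had group means from 46.5 ± 6.32 CPM at 0% RPS to 49.7 ± 7.44 at 2% RPS, and 47.8 ± 7.48 at 10% RPS. Cdca7, a cell division gene with high expression in the lower crypt (chr2:72306341-72317240), had 51.1 ± 11.3, 54.1 ± 7.93, 62.2 ± 10.1 and 59.8 ± 5.07 CPM in order of rising RPS. Cdca7 was the gene beside Prom1 with an unadjusted p under 0.05 at 5% RPS (0.0496), and its edgeR adjusted p there was 0.542. Its interval at 10% RPS, -0.06 to 0.51 log2 units, leaves room for a rise of this size. For Smoc2 the interval was -0.22 to 0.30.

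Among the genes that feed back on the pathway, Axin2 holds the complex that degrades beta-catenin, and Rnf43 and Znrf3 are membrane ubiquitin ligases that remove Wnt receptors from the cell surface. Axin2 (chr11:108811169-108841609) was at 29.1, 47.2, 27.4, 27.5 and 26.9 CPM in the 5 control mice and at 40.4, 32.8, 30.1, 29.6 and 32.0 CPM at 10% RPS. The control mouse RS10_703, at 47.2 CPM, lay above every mouse at 10% RPS, and the other controls lay below all of them. The log2 fold change was 0.06 ± 0.21, and without RS10_703 it was 0.26, with an edgeR adjusted p of at least 0.488 over all fits that leave out 1 mouse. At 2% RPS the mice had 35.9, 29.4, 66.6, 33.6 and 30.2 CPM, and at 5% RPS 35.0, 27.0, 26.7, 38.1 and 35.0 CPM. RS10_715 at 2% RPS was the highest of the 20.

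Rnf43 (chr11:87553548-87626377) was at 49.0 ± 6.86 CPM at 0% RPS and 44.3 ± 8.05 at 10% RPS, a log2 fold change of -0.14 (95% interval -0.40 to 0.11). Znrf3 (chr11:5226324-5394939) went from 13.0 ± 0.865 to 14.5 ± 1.19 CPM, and 3 of 5 mice at 10% RPS lay above every control. Its log2 fold change of 0.16 (95% interval -0.05 to 0.36, edgeR adjusted p = 0.463) did not pass. Both ligases act on the same receptors, and their log2 fold changes at 10% RPS had opposite signs with intervals that include 0.

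Sox9 and Myc are Wnt-induced transcription factors, Sox9 of the crypt base and Myc of growth and division. Sox9 (chr11:112673009-112678586) had 42.5, 73.7, 43.3, 48.8 and 44.6 CPM at 0% RPS and 64.0, 47.3, 44.1, 49.3 and 43.9 CPM at 10% RPS. Again RS10_703 stood high among the controls, and the means of 50.6 ± 13.2 and 49.7 ± 8.29 CPM differed by less than either SD. Myc (chr15:61857227-61862223) had 30.1, 37.8, 21.6, 31.1 and 31.5 CPM at 0% RPS and 51.3, 41.4, 27.6, 13.3 and 25.1 CPM at 10% RPS. The 10% group held both the lowest of all 20 mice, RS10_731, and 2 mice above every control. Its log2 fold change was 0.06 ± 0.33, with a 95% interval from -0.63 to 0.75, the widest of the 10 genes.

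As a group, 7 of the 10 genes had a log2 fold change above 0 at 10% RPS and 3 below, with a median of 0.06. Over all genes tested 8379 of 17893 were above 0, with a median of -0.015. At 5% RPS 8 of the 10 were above 0 with a median of 0.09, beside 8595 of all 17893 genes and a median of -0.0080. At 2% RPS 9 of the 10 were, with a median of 0.22, beside 8882 of all genes and a median of -0.00098. In the 2% group RS10_715 stood far above the other mice for Axin2, Sox9 and Myc. The 3 contrasts share the same 5 control mice. None of the 10 at 2% RPS had an unadjusted p under 0.05, and the groups at 2% and at 10% RPS overlapped with the controls for all 10 genes, where 0.24% and 2.28% of all genes did not overlap.

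The order of levels between genes was read over all 20 mice. Compared per kilobase (kb) of canonical transcript, Cdca7 was highest at 22.0 ± 3.61 CPM per kb (SD, n = 20), followed by Prom1 at 21.8 ± 8.35, Smoc2 at 17.0 ± 2.37, Myc at 14.1 ± 5.16, Sox9 at 13.0 ± 3.27 and Rnf43 at 11.7 ± 1.70. Axin2 followed at 7.69 ± 2.10, Ascl2 at 4.85 ± 1.62, Znrf3 at 2.11 ± 0.212 and Lgr5 at 1.68 ± 0.338 CPM per kb. Of the neighbours in this order only Ascl2 and Znrf3 had ranges that did not overlap. Cdca7 was above Prom1 in 12 of 20 mice, and the next 4 neighbouring pairs kept their order in 14 to 16 mice, while Rnf43 was above Axin2 in 20 and Znrf3 above Lgr5 in 19. The order of the 6 highest genes depends on the length used, and with the summed length of all exons Sox9 was second and Smoc2 sixth, while the 4 lowest kept their places.

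The spread between mice set the genes apart as well. The coefficient of variation was taken over all 20 mice, so it includes differences between diets. It was 38.3% for Prom1, 36.5% for Myc, 33.3% for Ascl2 and 27.3% for Axin2, and it was 10.1% for Znrf3 and 13.9% for Smoc2. To see which genes varied together, the mean of each diet was subtracted from log2 CPM and Pearson's r was computed over the 20 mice for all 45 pairs, with permutation of mice within diets. One pair passed the adjustment over 45: Axin2 and Myc, with r = 0.74 (permutation p = 3e-05, adjusted 0.00135), rho = 0.79 (permutation p = 8e-05, adjusted 0.0036) and r = 0.73 without RS10_715 and RS10_731.

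Axin2 and Sox9 had the largest r, 0.87, but its permutation p was 0.0025 (adjusted 0.053), rho was 0.57 (permutation p = 0.018, adjusted 0.116), and r was 0.62 without RS10_703 and RS10_715. Those mice were the highest of their diets for both genes. The stem cell markers Lgr5 and Smoc2 had r = 0.67 (permutation p = 0.00353, adjusted 0.053), rho = 0.61 (permutation p = 0.00981, adjusted 0.0911) and r = 0.55 without RS10_721 and RS10_731. Prom1 and Rnf43 ran opposite ways, with r = -0.66 (permutation p = 0.00787, adjusted 0.0708), rho = -0.67 (permutation p = 0.00522, adjusted 0.0911) and r = -0.58 without RS10_715 and RS10_725. Lgr5 and Ascl2, both markers of the same stem cell, had r = -0.08 (permutation p = 0.796, adjusted 0.833) and rho = -0.04 (permutation p = 0.876, adjusted 0.977), with r = -0.08 without RS10_709 and RS10_727.

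**Figure D3:**
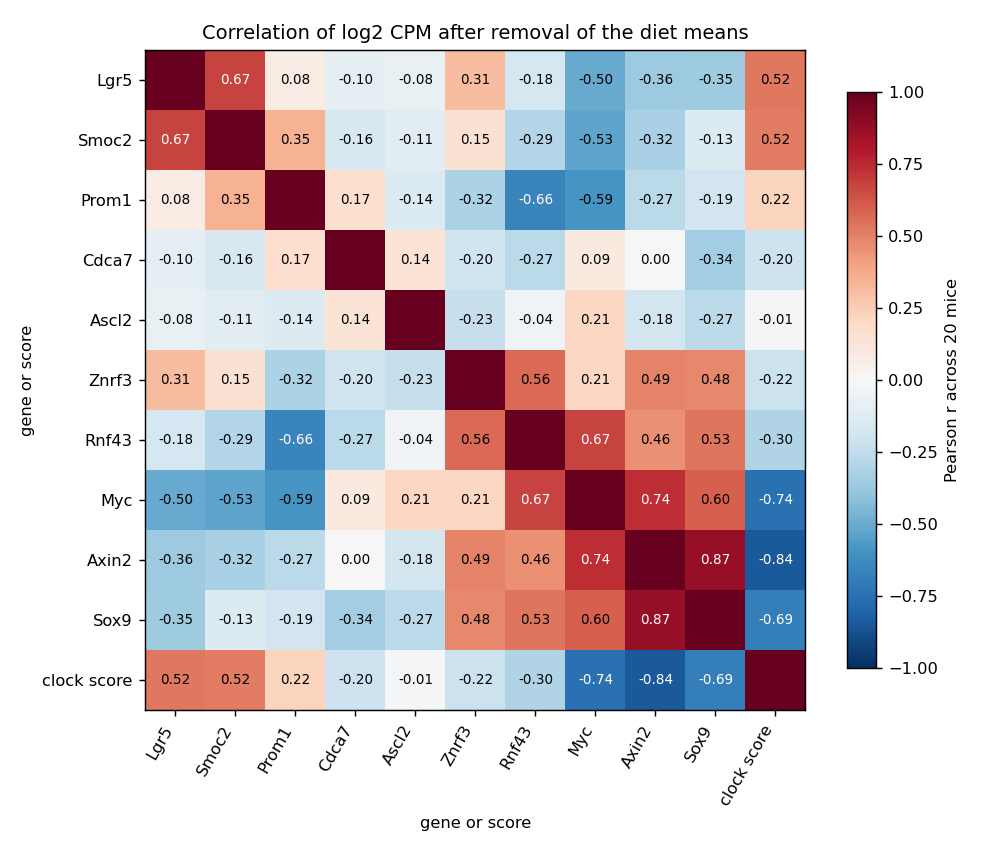
Pearson r (colour and number) between log2 CPM of each pair of genes across 20 mice after the mean of each diet was subtracted, with the clock gene score in the last row and column. Axin2 and Myc have r = 0.74, the pair that passed the adjustment over 45, and run against the clock score with r = -0.84 and -0.74. Axin2 with Sox9 (0.87), Lgr5 with Smoc2 (0.67) and Rnf43 with Myc (0.67) did not pass it.

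Time of day is not given in the labels, so clock genes were used as a stand-in for it. A difference in sampling time between diets cannot be told apart here from a diet effect on these genes. The clock score was the mean z-score of 7 genes of the Dbp and Nr1d1 phase, output genes and repressors of the clock, minus that of Bmal1, Clock and Npas2, which peak in the opposite phase. It ranged from -2.20 to 2.93 at 0% RPS and from -3.78 to 0.57 at 10% RPS, with means of 0.36 ± 1.83 and -1.31 ± 1.78 (SD, n = 5). Axin2 fell as the score rose, with r = -0.84 and rho = -0.81 within diets. The permutation p was 1e-05 for each, the smallest that 100000 permutations can give, or 0.0001 adjusted over the 10 genes, and r was -0.80 without RS10_703 and RS10_715. Myc had r = -0.74 (permutation p = 0.00067, adjusted 0.00335), rho = -0.65 (permutation p = 0.00557, adjusted 0.0279) and r = -0.68 without the same mice.

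Sox9 had r = -0.69 (permutation p = 0.00482, adjusted 0.0161), but rho was -0.35 (permutation p = 0.159, adjusted 0.319) and r fell to -0.47 without RS10_703 and RS10_715, so its relation rested on those mice. Lgr5 and Smoc2 lay on the other side, each with r = 0.52 (permutation p = 0.0295 and 0.0347, adjusted 0.0694), with rho = 0.52 and 0.55 (adjusted permutation p = 0.0842 and 0.0737) and with r = 0.53 and 0.59 without RS10_703 and RS10_715. For the other 5 genes the adjusted permutation p was 0.412 or more for r and 0.360 or more for rho. Prom1 was among them, with r = 0.22 (permutation p = 0.404, adjusted 0.481), rho = 0.25 (permutation p = 0.354, adjusted 0.506) and r = 0.24 without those mice. With the clock score in the edgeR model, the log2 fold change at 10% RPS became -0.19 for Axin2 and -0.42 for Myc, neither past the threshold, and the slope of Prom1 was 0.11 with an adjusted p of 0.0437.

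**Figure D4:**
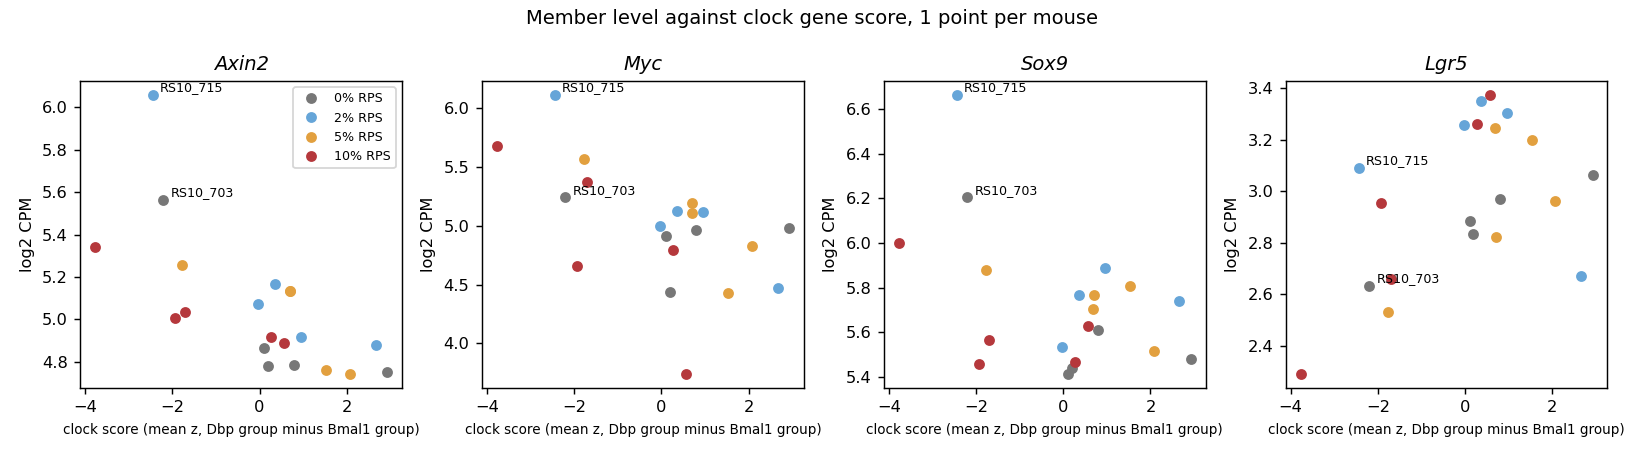
Log2 CPM of Axin2, Myc, Sox9 and Lgr5 (vertical axes) against the clock gene score (horizontal axis), 1 point per mouse, coloured by diet. Mice with a low score, RS10_703 and RS10_715 among them, are high for Axin2 (r = -0.84 within diets), and for Sox9 these mice carry the relation (r = -0.69, and -0.47 without them).

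The genes most like 4 of the members were sought among the 15222 tested genes that averaged 1 CPM or more, by the same within-diet r over 20 mice, as a description. Nearest to Axin2 were Ereg, an epidermal growth factor family ligand (0.91), Adamts4, a matrix protease (0.90), and Spon2 (0.89). Nearest to Prom1 were the tetraspanin Tspan1 (0.85), the uroplakin Upk1a (0.84) and Ano10 (0.81). Lgr5 lay nearest to Akr1b1 (0.81), Entpd6 (0.80) and Tedc2 (0.80), and Ascl2 to Prpf6 (0.86), Wtip (0.83) and Adissp (0.82). None of the 12 is one of the 10 genes or of the pathway lists, and the highest r out of 15222 is large by selection.

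The rest of the pathway was followed through 8 lists with 126 tested genes: ligands and R-spondins, receptors, secreted and membrane antagonists, intracellular parts, other Wnt targets, other crypt base genes, the stromal niche and the cell cycle. At 10% RPS 58 of the 126 had a log2 fold change above 0 and 68 below, with a median of -0.025. Over all genes tested 8379 were above 0 and 9514 below, with a median of -0.015. With edgeR 0 of the 126 were called at 10% RPS, where 0.0391% of all genes were called. The trend passed for 0 of the 126, where 2.1% of all genes passed. The smallest edgeR adjusted p was 0.122 at 10% RPS and 0.0687 in the trend. At an unadjusted p under 0.05 there were 22 at 10% RPS, or 17.5%, beside 15.2% of all genes, and 23 in the trend, or 18.3%, beside 19.1%. DESeq2 called 5 of the 126 at 10% RPS, or 3.97%, beside 1.21% of all genes, and gave a trend to 11, or 8.73%, beside 6.01%.

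On the supply side, 0 of 13 ligand and R-spondin genes and 0 of 16 receptors passed in edgeR, beside those same shares of all genes. Wls, the sorting receptor for Wnt secretion, was at 120.5 ± 13.7 CPM at 0% and 134.9 ± 9.32 at 10% RPS, and the ligand Wnt5a was at 11.2 ± 2.31 and 11.4 ± 1.505 CPM. Lgr4, the relative of Lgr5 that also binds R-spondins, was at 230.9 ± 15.5 and 240.6 ± 40.6 CPM, and the Wnt co-receptor Lrp6 at 125.5 ± 10.04 and 148.4 ± 15.7 CPM (log2 fold change 0.24 ± 0.076, edgeR adjusted p = 0.134). Of the 13 antagonists 12 had a log2 fold change below 0, beside 9514 of the 17893 genes tested. The median of the 13 was -0.12, and none of the 13 had an unadjusted p under 0.05, beside 15.2% of all genes. The most abundant of these were Dkk3, at 67.2 ± 3.24 and 58.3 ± 12.05 CPM, and Sfrp1, which binds Wnt proteins, at 53.2 ± 8.98 and 50.2 ± 10.9 CPM.

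Inside the cell, 0 of 22 genes passed in edgeR, with 11 above 0 and 11 below. Ctnnb1, which encodes beta-catenin, was at 597.9 ± 31.4 and 668.4 ± 43.0 CPM, and Csnk1a1, a kinase that marks beta-catenin for degradation, at 298.1 ± 12.01 and 317.0 ± 21.6 CPM. Among 10 other Wnt targets 7 were above 0, with Ccnd2, a cyclin, at 199.5 ± 54.4 and 253.6 ± 50.7 CPM and Ets2 at 243.4 ± 27.4 and 236.3 ± 29.1 CPM. Among 18 other crypt base genes 11 were above 0, with a median of 0.02. Reg4, of deep crypt secretory cells, was at 228.9 ± 48.3 and 257.7 ± 52.5 CPM, and the surface glycoprotein gene Cd24a at 214.1 ± 46.7 and 241.9 ± 32.0 CPM. Aqp4, a water channel of the crypt, had the largest log2 fold change of that list, 1.61 ± 0.47, at 53.8 ± 18.5 and 164.4 ± 82.6 CPM, and was named after its value was seen. It did not pass in edgeR (adjusted p = 0.124) and passed in DESeq2 (0.0275). In the stromal niche, 11 of 15 were below 0, with the tetraspanin gene Cd81 at 177.0 ± 14.3 and 181.4 ± 6.18 CPM and Bmp2, a ligand of the opposing BMP pathway, at 89.7 ± 17.8 and 102.8 ± 12.6 CPM.

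The cell cycle list had the largest median of the 8. Of its 19 genes 15 were above 0 at 10% RPS, the median was 0.43, and 8 had an unadjusted p under 0.05, each of them above 0, where 15.2% of all genes had one. Pcna, the sliding clamp of DNA replication, was at 71.5 ± 14.6 and 104.4 ± 17.3 CPM (log2 fold change 0.55 ± 0.16, edgeR adjusted p = 0.122), while Mki67, a marker of all dividing cells, was at 120.1 ± 53.4 and 114.9 ± 41.8 CPM. DESeq2 called 4 of the 19, beside 1.21% of all genes, the replication helicase subunits Mcm2, Mcm4 and Mcm6 and the chromatin remodeller Hells, which were named after their values were seen. The summed level of the 19 genes overlapped between diets, from 475 to 1032 CPM in controls and from 497 to 1130 CPM with 10% RPS. Within diets none of the 10 members correlated with the mean log2 CPM of this list after adjustment over 30 relations. The smallest adjusted permutation p was 0.28 for r, for Cdca7.

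**Figure D5:**
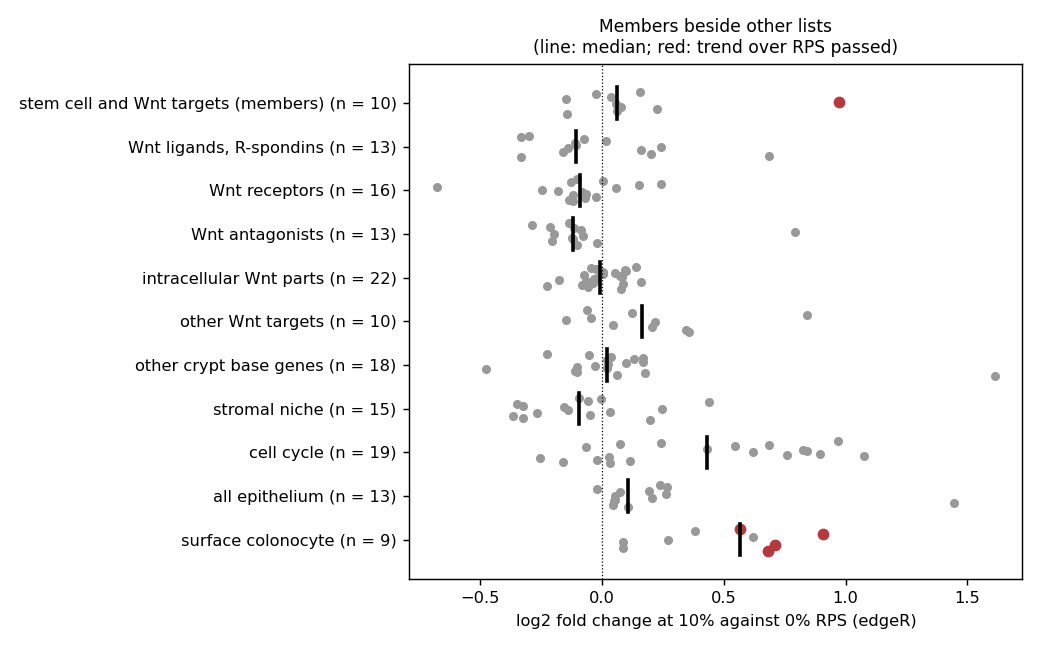
Log2 fold change at 10% against 0% RPS (horizontal axis) of each tested gene of the 10 members and of 10 other lists, 1 point per gene, with the median as a black line and genes whose trend over RPS passed in red. Prom1 is the red point among the members, the 8 pathway lists hold 0 red points, and the surface colonocyte list holds 4.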

How the data were processed

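Polyadenylated RNA from the DC of 20 mice was sequenced as stranded single-end libraries with reads of 50 bases. The authors removed low-quality bases and ambiguous reads, mapped to GRCm39 in CLC Genomics Workbench 20.01 and deposited raw counts of reads per gene and mouse, with no pooling. Strand setting and handling of multi-mapped reads are not given in the sources used here, so genes that overlap another gene of the table (Lgr5, Smoc2, Prom1, Axin2, Rnf43 and Sox9 among the members) are uncertain to that extent. Of 26619 identifiers, 26338 matched GENCODE vM39.

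Counts were analysed in R 4.3.3 with edgeR 4.0.16 (filterByExpr with a minimum count of 10, TMM scaling, robust quasi-likelihood fit over the 4 diets, Benjamini-Hochberg adjustment over 17893 genes). Calls needed an adjusted p no higher than 0.05 and, in the contrasts, a fold of 1.5 or more. Log2 CPM used a prior count of 2. Depth was 32.8 ± 1.35, 27.9 ± 2.61, 28.3 ± 3.40 and 24.3 ± 3.42 M counts (SD, n = 5) at 0, 2, 5 and 10% RPS. At 3 counts per library, the smallest level that could be told from 0 was at most 0.163 CPM. Mouse numbers belong to 1 animal each and pair no mice. DESeq2 1.42.0, limma-voom (limma 3.58.1), RLE scaling, scaling without immunoglobulin genes or to epithelial transcripts, no filter, thinning, the other label, the clock score, the 2 diets alone and each mouse left out were alternatives.

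The members and the gene lists were chosen with earlier results of these data known. Members were named whatever their values. From each other list up to 4 genes that passed 0.05 (edgeR adjusted p) at 10% RPS or in the trend were named by fold change, and where none passed, the 2 with the highest mean CPM. For Lgr5, Ascl2, Axin2 and Prom1, the 3 genes with the highest within-diet r were named.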

Additional observations from a re-analysis of the deposited data

Results flagged for a closer look

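The 10 genes were examined in each of the 4 diets for a mouse far from the rest of its group, which gives 40 groups of 5 mice, and 7 of them held one, where chance alone would give about 2. The same mice recur for every gene and some genes varied together, so these flags are not independent of each other. Mouse RS10_715 of the 2% RPS group accounted for 3 of the 7. It had 66.6 CPM of Axin2 against 35.9 CPM in the next mouse, 101.4 CPM of Sox9 against 59.1 CPM, and 69.2 CPM of Myc against 34.9 CPM. Mouse RS10_703 of the 0% RPS group accounted for 2, with 47.2 CPM of Axin2 against 29.1 CPM and 73.7 CPM of Sox9 against 48.8 CPM. For Sox9 in the 10% RPS group, RS10_725 stood at 64.0 CPM and the next mouse at 49.3 CPM. These 3 mice had clock scores of -2.44, -2.20 and -3.78, the lowest of their diets. Their part in the levels was not tested beyond the correlations and the model with the clock score given above.

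Mouse RS10_721 of the 5% RPS group was low for Znrf3, at 11.2 CPM against 12.9 CPM in the next mouse. It also carried the pancreatic transcripts, at 6472 CPM, and whether these bear on its Znrf3 level was not tested.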

How the results depend on the processing

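The count of members called at 10% RPS, 0 in edgeR, was 1 under DESeq2, 1 under scaling to epithelial transcripts and 0 to 1 when each of the 20 mice was left out in turn. Over all genes the main count of 7 was 210 under DESeq2, 591 under epithelial scaling and 188 without RS10_727, the omission that gave the 1. The count with a trend, 1, was 0 with all genes of at least 1 count (Prom1 adjusted p = 0.0556 in edgeR), 0 by the treatment label, 0 without the 3 mice whose labels disagree, and 0 to 1 with 1 mouse left out. The count with any diet difference, 0, was 1 under DESeq2. Pathway genes with a trend, 0 in the main analysis, numbered 11 under DESeq2, 1 under limma-voom, 29 under scaling to epithelial transcripts and 0 to 11 with 1 mouse left out, the last without RS10_727. They numbered 4 without RS10_703, 2 without RS10_704 and 1 without RS10_721. Scaling to epithelial transcripts moved the median log2 fold change of all genes at 10% RPS from -0.015 to -0.26 and gave trends to 4152 genes, 4023 of them falling.

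Prom1 kept its direction under every alternative run. Several members that did not pass in the main analysis changed sign and did not pass there either. At 10% RPS under epithelial scaling the log2 fold change was -0.18 for Lgr5, -0.20 for Smoc2, -0.17 for Axin2, -0.089 for Znrf3 and -0.16 for Myc, and the slope was -0.023 for Smoc2 and -0.012 for Znrf3. By the treatment label it was 0.055 for Ascl2, -0.031 for Axin2 and -0.10 for Myc, with slopes of 0.019 for Lgr5 and 0.00082 for Ascl2. Without the 3 mice it was -0.013 for Axin2 and -0.18 for Myc, with a slope of 0.016 for Lgr5. With the clock score it was -0.19 for Axin2 and -0.42 for Myc, with a slope of 0.0095 for Lgr5. Under limma-voom it was -0.074 for Myc, with a slope of 0.00020 for Axin2. With 1 mouse left out the log2 fold change ranged from -0.047 to 0.21 for Lgr5, -0.044 to 0.11 for Smoc2, -0.022 to 0.26 for Axin2, -0.13 to 0.16 for Sox9 and -0.18 to 0.26 for Myc. The slope ranged from -0.014 to 0.011 for Lgr5, -0.0061 to 0.0088 for Smoc2, -0.014 to 0.0062 for Axin2 and -0.029 to 0.014 for Myc. The causes were not tested.

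No paired analysis was possible because each mouse number occurs in 1 diet only. Lgr5 and Ascl2, with means of 223 and 219 counts per mouse, carry the most counting error of the 10 genes.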

Other observations

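Outside the crypt base, the marker lists of other cell types gave 6 genes with a trend over RPS in edgeR, where 2.1% of all genes passed. They were 4 of 9 surface colonocyte genes tested, 1 of 6 enteroendocrine genes and 1 of 7 genes of distal colon position. Besides the 4 surface colonocyte genes, those that passed were Pyy, a peptide hormone of enteroendocrine cells, at 70.8 ± 10.2 CPM without RPS and 107.2 ± 17.4 CPM with 10% RPS (trend adjusted p = 0.0147), and Hoxb13, which fell from 520.4 ± 54.7 to 413.8 ± 25.2 CPM (trend adjusted p = 0.0425). Of the 6 enteroendocrine genes 4 had a log2 fold change above 0 at 10% RPS and 2 below. An unadjusted p under 0.05 in the edgeR trend was found for 4 of the 6, beside 19.1% of all genes, and 3 of these rose. In the surface list, Krt20 was at 565.5 ± 226 and 1060 ± 199 CPM, Slc26a3 at 1102 ± 157 and 1633 ± 119 CPM, and Aqp8 at 431.1 ± 102 and 691.1 ± 128 CPM. The goblet cell mucin Muc2 was at 2495 ± 505 and 3106 ± 870 CPM, and the goblet cell protein Fcgbp at 2142 ± 305 and 2560 ± 561 CPM. None of the 8 goblet cell genes, 5 tuft cell genes or 8 smooth muscle genes tested passed the trend in edgeR. Myh11, the smooth muscle myosin, was at 2695 ± 615 and 2617 ± 376 CPM, and Dclk1, of tuft cells, at 14.4 ± 2.21 and 17.6 ± 2.35 CPM.

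Of the 11 pathway genes to which DESeq2 gave a trend, Porcn, the enzyme that lipidates Wnt proteins, had a log2 fold change below 0, at 11.6 ± 1.28 and 9.25 ± 1.15 CPM, and was named after its value was seen.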
